A study of Homo sapiens with 16 samples.

Results

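The dependence of the GCN2iB response on p53 was measured in LNCaP cells, an established line from human prostate cancer. All 16 RNA-seq libraries of the study entered the comparison, in 4 groups of 4. The groups were WT cells with vehicle (DMSO), WT cells with 5 µM GCN2iB, p53 KO cells with vehicle and p53 KO cells with 5 µM GCN2iB, each kept for 48 h with the agent after 350000 cells had been plated per well. The p53 KO cells were made with CRISPR, and the labels give neither the edit nor whether the line is 1 clone. They do not say that replicates were separate cultures, so a p-value here reflects library-to-library spread, which may be technical. The comparison covered all tested genes, and the genes named below were chosen partly after their values were seen. For each of 18549 tested genes, of 62754 in the table, the quantity was the difference of responses: the log2 ratio of GCN2iB to vehicle in p53 KO cells minus the same ratio in WT cells. A negative value means that a transcript fell further, or rose less, without p53. Levels are CPM, a gene's share of the scaled library total, as mean ± SD (n = 4).

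GCN2, encoded by EIF2AK4, is a kinase that senses uncharged transfer RNA and phosphorylates the translation factor eIF2, which raises translation of the transcription factor ATF4. ATF4 drives genes of amino acid synthesis, amino acid uptake and transfer RNA charging. GCN2iB is an inhibitor of this kinase. p53 is a transcription factor that drives genes of cell cycle arrest, apoptosis and metabolism. The sestrins join both pathways: SESN1 and SESN2 are p53 targets, SESN2 is also an ATF4 target, and the SESN2 protein binds leucine and restrains the growth kinase mTORC1 when leucine is scarce.

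Library totals ran from 17418072 to 39915685 counts. The p53 target CDKN1A was 7.33-fold lower and MDM2 2.002-fold lower in p53 KO vehicle than in WT vehicle. Marker levels in this paragraph are CPM of the library total before scaling. On that scale the luminal prostate marker KLK3 stood at 1275 to 1863 CPM over the libraries. TP63 and KRT5 (basal cells), CHGA (neuroendocrine cells) and PTPRC, CD3E and HBB (blood cells) were each at 0.254 CPM or less. Other members of these marker lists were expressed. Over all libraries the summed levels were 90.3 to 162 CPM for 16 basal markers and 33.001 to 46.999 CPM for 15 neuroendocrine markers. The 18 mesenchymal markers summed to 546 to 669.7 CPM in WT vehicle, 514 to 581 in WT GCN2iB, 680.3 to 869.998 in p53 KO vehicle and 448 to 737 in p53 KO GCN2iB, and their part in the results was not tested. The summed levels of the 18 immune and blood markers were 18.3 to 23.4 CPM in WT and 11.7 to 14.97 CPM in p53 KO libraries, and 3 of them had no count anywhere. One library stood apart. On principal component 1 (64.2% of the variance of 500 genes), WT GCN2iB replicate 4 lay at -11.16, whereas the other 3 WT GCN2iB libraries lay between -21.68 and -20.60 and the p53 KO libraries between 18.30 and 21.28. In bulk RNA, fewer cells of a kind and less RNA per cell cannot be told apart.

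1 gene passed the test of the difference of responses, SESN2. Of all tested genes 0.00539% were called at an adjusted p under 0.05, with 0 higher and 1 lower. At an unadjusted p under 0.05 there were 1754 genes (9.46%), 1098 with a difference above 0 and 656 below. Among the 11320 genes with at least 5 CPM these were 923 and 315. DESeq2 called 19 higher and 19 lower, and limma voom called 0 higher and 1 lower. Without WT GCN2iB replicate 4 edgeR called 2 higher and 3 lower, among them SESN2, CBLN2 and SLC7A5. WT GCN2iB replicate 1 weighed more on the count, with 19 higher and 15 lower once it was left out. Without p53 KO GCN2iB replicate 4 the counts were 3 and 7. With replicate number added as a block, though the labels state no pairing, edgeR called 35 higher and 26 lower. Other than SESN2, no difference of responses in the next paragraphs passed in the edgeR fit of all 16 libraries without a block. Responses within 1 genotype are named as such.

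The background of these values was above 0. The difference was above 0 in 54.8% of all tested genes (median 0.02) and in 61.7% of those with at least 5 CPM (median 0.04), so a count of list members above 0 is read against these shares. Counts of list members that rose or fell are read against 11.6% and 13.6% of all tested genes in WT. In p53 KO these shares were 11.4% and 8.71%. The median over all tested genes was -0.02 with library totals as the scaling and -0.01 once trends with GC content and transcript length had been taken out of every library. That removal, called trend removal here, moved the difference by over 1.5 times in 25 of 101 genes examined, nearer to 0 in 23 of them.

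SESN2 (ENSG00000130766, chromosome 1, 28259527 to 28282491 in GENCODE 29, GRCh38) fell in both genotypes and fell further without p53. In WT vehicle it stood at 45.8, 52.2, 52.1 and 51.4 CPM and in WT GCN2iB at 37.7, 41.002, 39.2 and 36.5 CPM. In p53 KO vehicle it stood at 40.4, 44.9, 47.2 and 46.6 CPM and in p53 KO GCN2iB at 20.4, 20.95, 19.1 and 21.3 CPM. Every p53 KO GCN2iB library was below every other library, and the WT groups did not overlap each other. The fall was 1.31-fold in WT (log2 -0.39, SE 0.07, adjusted p = 0.000194 by edgeR) and 2.19-fold in p53 KO (log2 -1.13, SE 0.07, adjusted p = 1.32e-10). The difference of responses was -0.74 (SE 0.10, 95% interval -0.94 to -0.54, adjusted p = 0.00142). Under vehicle the genotypes differed by log2 -0.17, which did not pass (adjusted p = 0.07), and under GCN2iB by -0.91 (adjusted p = 1.26e-09). Without WT GCN2iB replicate 4 the difference of responses was -0.79 (adjusted p = 0.00202), and over all 25 alternatives the adjusted p ran from 1.16e-09 to 0.00772.

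**Figure D1:**
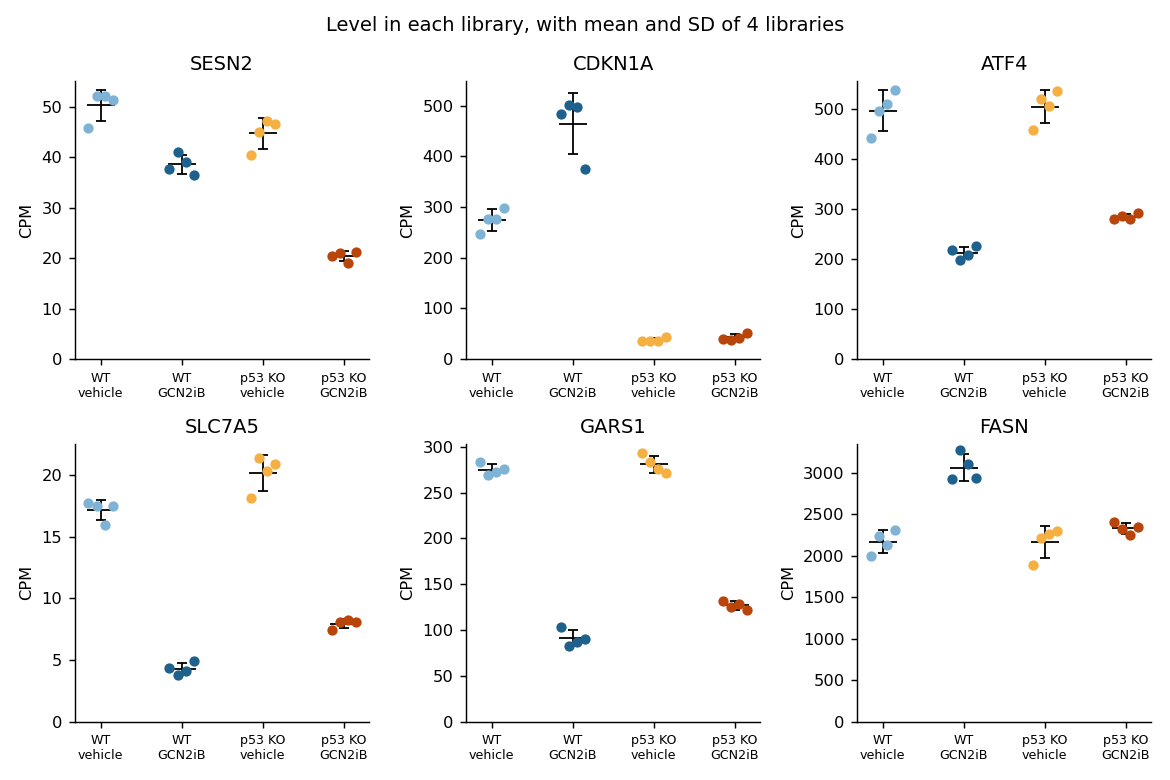
Level of 6 genes in each library (points, CPM on linear axes that start at 0) with the mean and SD of the 4 libraries of each group. SESN2 is lowest in p53 KO GCN2iB, CDKN1A is high only in WT libraries, ATF4, SLC7A5 and GARS1 are lower with GCN2iB in both genotypes, and FASN is highest in WT GCN2iB.

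The other sestrins did not share this pattern in value. SESN1 went from 67.4 ± 3.66 to 55.7 ± 5.77 CPM in WT and from 19.8 ± 1.03 to 17.2 ± 1.46 CPM in p53 KO, a difference of responses of 0.07 (95% interval -0.16 to 0.30). Its level was already 3.40-fold lower in p53 KO vehicle. SESN3 had a difference of 0.03 (-0.28 to 0.35). Both intervals lie wholly above the value of SESN2, and the contrast between the family members was not tested. DDIT4, which encodes the mTORC1 inhibitor REDD1 and answers to both ATF4 and p53, stood at 369.7, 428, 427 and 482 CPM in WT vehicle and 291, 336, 335 and 327 CPM in WT GCN2iB. In p53 KO it stood at 319, 314, 322 and 354 CPM with vehicle and 178, 166, 148 and 224 CPM with GCN2iB, and the last group overlapped no other. DDIT4 fell 1.33-fold in WT and 1.82-fold in p53 KO, with a difference of -0.46 (-0.74 to -0.18, adjusted p = 0.326 by edgeR, and 0.00382 to 0.681 over the alternatives). Of 27 tested sestrins and regulators of mTORC1, 17 had a difference above 0 and 10 below, a share near the background, and SESN2 was the 1 called. DEPDC5, a subunit of the GATOR1 complex that inhibits mTORC1, had 0.29 (adjusted p = 0.506). DEPTOR, which binds and inhibits mTOR, fell in WT from 11.4 ± 0.878 to 8.32 ± 0.396 CPM and had 0.28 (adjusted p = 0.531).

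By value, most p53 targets had a lower response to GCN2iB in p53 KO cells than in WT cells. Of 39 tested p53 targets, 12 rose and 5 fell in WT, against 11.6% and 13.6% of all tested genes. In p53 KO 7 rose and 4 fell, against 11.4% and 8.71%. The median response was 0.18 in WT and 0.02 in p53 KO, and the median difference was -0.13, whereas that of all tested genes was 0.02. The difference was below 0 in 25 of the 39, and SESN2 was the only one called. At an unadjusted p under 0.05 were 5 below 0 and 0 above, against 656 and 1098 of all 18549 tested genes. Targets for cell cycle arrest and feedback had a median difference of -0.17 (12 genes), those for apoptosis and AKT -0.13 (12 genes), and those for DNA repair and metabolism -0.01 (15 genes).

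CDKN1A, the cyclin-dependent kinase inhibitor p21 (ENSG00000124762, chromosome 6, 36676460 to 36687339), stood at 247, 276, 277 and 298 CPM in WT vehicle and 483, 501, 498 and 375 CPM in WT GCN2iB. The p53 KO levels were 35.4, 36.1, 35.4 and 43.1 CPM with vehicle and 39.9, 38.5, 41.5 and 51.7 CPM with GCN2iB. The WT groups did not overlap, the p53 KO groups did, and WT GCN2iB replicate 4 was the lowest of its group. CDKN1A rose 1.69-fold in WT (adjusted p = 7.61e-06 by edgeR), an added 189.6 CPM. In p53 KO the ratio was 1.15 (adjusted p = 0.183), an added 5.41 CPM. The difference of responses was -0.56 (-0.85 to -0.27) and did not pass (adjusted p = 0.286). It passed in DESeq2 (adjusted p = 0.0487), and without WT GCN2iB replicate 4 it was -0.67 (adjusted p = 0.0579 by edgeR). Over the alternatives the adjusted p of CDKN1A ran from 0.000191 to 0.594. PHLDA3, an inhibitor of AKT signalling, rose 1.80-fold in WT, from 79.3 ± 11.4 to 143 ± 19.4 CPM. Its p53 KO levels were 3.95 ± 0.585 and 4.61 ± 1.65 CPM, and its difference was -0.58 (-1.11 to -0.05, adjusted p = 0.492). BBC3, which encodes the apoptosis inducer PUMA, had 11.02 ± 1.49 and 12.96 ± 1.09 CPM in WT, 4.28 ± 0.394 and 3.46 ± 0.486 CPM in p53 KO, and a difference of -0.51 (-0.84 to -0.17). MDM2, the ubiquitin ligase that limits p53, had -0.18 (-0.44 to 0.08). GDF15, a secreted stress cytokine, was the most abundant of these targets, at 849 ± 163 and 1062 ± 95.1 CPM in WT and 339 ± 33.6 and 321 ± 94.1 CPM in p53 KO, and had -0.40 (-0.92 to 0.11).

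**Figure D2:**
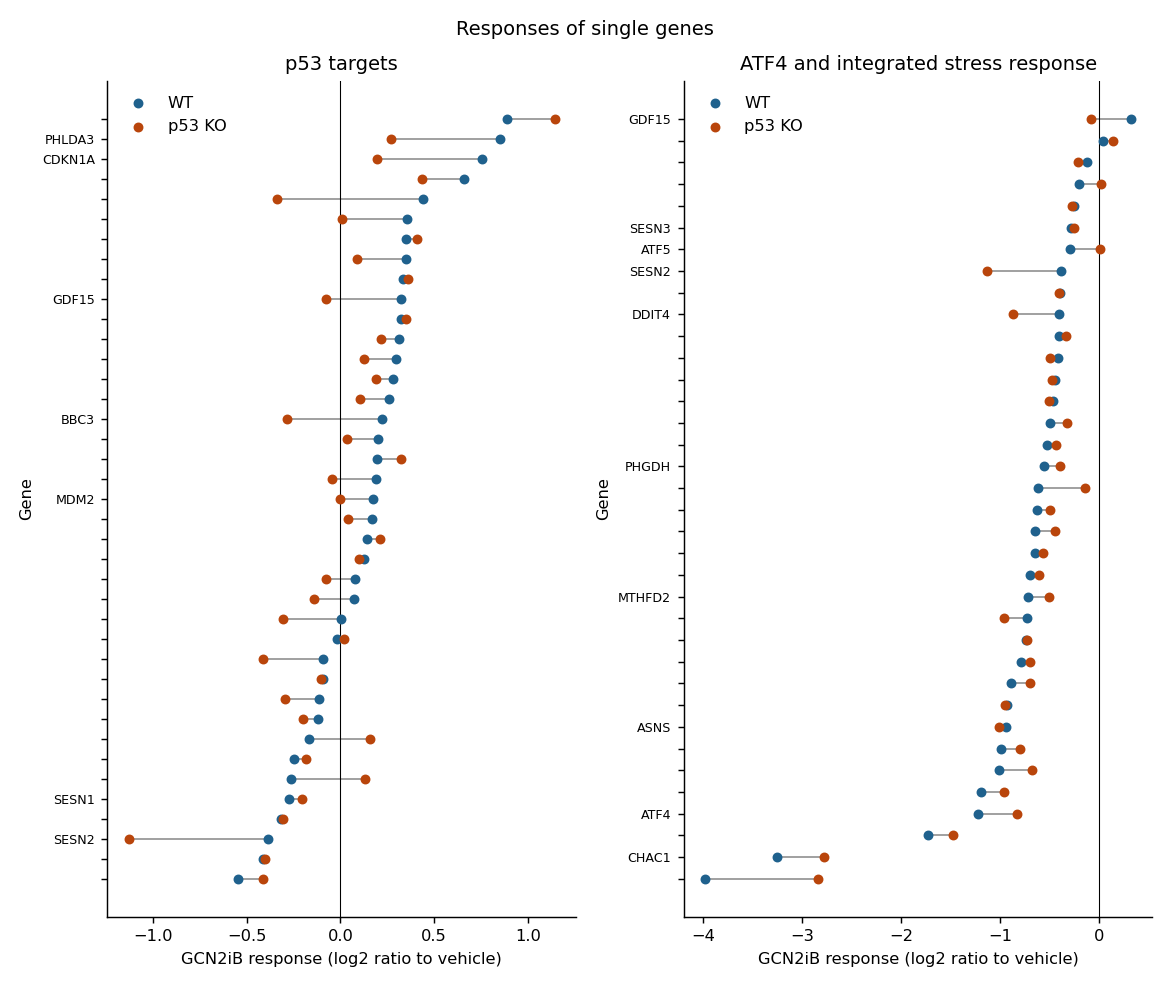
GCN2iB response (log2 ratio to vehicle) of each tested p53 target and each tested ATF4 or stress-response gene in WT (blue) and p53 KO (orange) cells, joined by a line and ordered by the WT response, with names for genes given in the text. SESN2 is the only gene of either list whose difference passed, at -0.39 in WT and -1.13 in p53 KO.

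Most transcripts of the ATF4 pathway fell in both genotypes. Of 36 tested genes, 30 fell and 0 rose in WT, and 28 fell and 0 rose in p53 KO. The median response was -0.62 in WT and -0.50 in p53 KO, with a median difference of 0.09 (0.05 after trend removal). The difference was above 0 in 24 of 36, near the background share. Of the 30 that fell in WT, 21 had a difference above 0, that is a smaller fall or no fall in p53 KO by value. Over all tested genes that fell in WT this held for 2156 of 2524, a larger share, and in both counts the genes were chosen by their WT response. At an unadjusted p under 0.05 the difference was above 0 in 9 genes and below 0 in 3, against 1098 and 656 of all 18549 tested genes. The 1 call of the list was SESN2, which lay on the opposite side.

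ATF4 (ENSG00000128272, chromosome 22, 39519695 to 39522685) stood at 442, 496, 509 and 538 CPM in WT vehicle and 217, 199, 209 and 226 CPM in WT GCN2iB. In p53 KO it stood at 457, 519.7, 505 and 535 CPM with vehicle and 279, 287, 279 and 292 CPM with GCN2iB. The vehicle groups overlapped, and every p53 KO GCN2iB library was above every WT GCN2iB library. ATF4 fell 2.33-fold in WT and 1.77-fold in p53 KO, and the difference of 0.40 (0.21 to 0.58) did not pass (adjusted p = 0.225 by edgeR). It passed in DESeq2 (adjusted p = 0.0487) and after trend removal (0.00831 by edgeR). Over the alternatives the adjusted p of ATF4 ran from 0.00831 to 0.594. CHAC1, a glutathione-degrading enzyme, had the largest fold of the named genes, from 20.03 ± 1.79 to 2.08 ± 0.449 CPM in WT and from 23.5 ± 2.93 to 3.40 ± 0.592 CPM in p53 KO. It fell 9.52-fold and 6.86-fold, with a difference of 0.47 (0.08 to 0.87, adjusted p = 0.453). ATF5, a related transcription factor, fell in WT (log2 -0.30) and was at 54.4 ± 1.88 and 54.7 ± 4.16 CPM in p53 KO, a difference of 0.31 (adjusted p = 0.334). ASNS, asparagine synthetase, fell 1.92-fold in WT and 2.01-fold in p53 KO, and its difference was -0.07 (-0.44 to 0.30). EIF2AK4, the gene of GCN2, fell in WT from 138 ± 10.2 to 112 ± 5.21 CPM and stood at 129 ± 6.99 and 117 ± 14.8 CPM in p53 KO, a difference of 0.16 (-0.07 to 0.38).

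Promoter sequence is shown for the C/EBP-ATF element, the composite site that ATF4 dimers recognise in amino acid response genes. TGATGNAA was searched on both strands of RefSeq promoter windows (GRCh38.p14, 250 bases before to 50 after each start, 1 or more windows per gene). It was present in 1217 of 27305 genes with a window (4.46%), whether or not they were tested, so this share is not one of expressed genes. Of the tested members with a window it was present in 7 of 28 ATF4 and stress-response genes, in 6 of 18 amino acid transporters and in 7 of 16 aminoacyl-tRNA synthetases. The following stretches are given 5′ to 3′ on the strand of the element, which is in capitals. They lie at chr15:40953251-40953280 on the minus strand (CHAC1), chr7:97872458-97872487 on the minus strand (ASNS), chr7:30594834-30594863 on the minus strand (GARS1) and chr11:3057407-3057436 on the plus strand (CARS1), each in an exon and annotated UTR of its gene in GENCODE 29. The ASNS stretch also overlaps the gene AC079781.5.
CHAC1: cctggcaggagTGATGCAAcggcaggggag
ASNS: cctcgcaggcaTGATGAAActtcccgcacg
GARS1: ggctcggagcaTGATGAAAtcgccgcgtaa
CARS1: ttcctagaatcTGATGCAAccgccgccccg
The 4 genes printed are those with the element from a longer set picked by name, and only a part of the list members with it. No element was found for others of that set, among them SLC7A11, MTHFD2, DDIT4, BEST1 and CDKN1A. Of these, SLC7A11, MTHFD2, DDIT4 and BEST1 also fell in both genotypes. The 4 printed genes fell with GCN2iB in both genotypes, and their differences ran from -0.07 for ASNS to 0.47 for CHAC1. Of other members with the element, AARS1 fell in both genotypes, whereas SLC3A2 passed in neither (log2 -0.08 in WT and -0.03 in p53 KO). The windows of SESN2, SLC7A5 and ATF4 held no TGATGNAA, which says only that these letters are not in those windows.

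Aminoacyl-tRNA synthetases charge transfer RNA with amino acids, and most of them fell in both genotypes. Of 20 tested aminoacyl-tRNA synthetases, 13 fell and 2 rose in WT, and 11 fell and 2 rose in p53 KO. The difference of responses was above 0 in 19 of 20, and 0 were called. The median difference was 0.13 (0.06 after trend removal). At an unadjusted p under 0.05 were 8 above 0, against 1098 of all 18549 tested genes. All 13 that fell in WT had a difference above 0, that is a smaller fall or no fall in p53 KO by value. Over all tested genes that fell in WT this held for 2156 of 2524. In both counts the genes were chosen by their WT response. GARS1, glycyl-tRNA synthetase (ENSG00000106105, chromosome 7, 30594681 to 30634033), stood at 284, 269, 272 and 275 CPM in WT vehicle and 103, 83.05, 87.04 and 90.7 CPM in WT GCN2iB. In p53 KO it stood at 293, 284, 276 and 272 CPM with vehicle and 132, 126, 128 and 122 CPM with GCN2iB, so the vehicle groups overlapped and the GCN2iB groups did not. GARS1 fell 3.02-fold in WT and 2.22-fold in p53 KO, and the difference was 0.45 (0.27 to 0.63, adjusted p = 0.0674 by edgeR, 0.14 without WT GCN2iB replicate 4, and 0.00192 to 0.365 over the alternatives). CARS1, the cysteine enzyme, fell 2.53-fold and 2.10-fold, with 0.27 (0.09 to 0.45). It was higher in p53 KO under vehicle (log2 0.21, adjusted p = 0.0159 by edgeR). Its losses in CPM were alike, -41.0 in WT and -41.1 in p53 KO. AARS1, the alanine enzyme and the most abundant, fell 1.39-fold and 1.31-fold, with 0.08 (-0.10 to 0.26). KARS1, the lysine enzyme, passed in neither genotype, with responses of -0.11 and 0.13.

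Amino acid transporters had a median difference of 0.05 over 19 tested genes, and 11 fell in each genotype. SLC7A5, the light chain of the leucine transporter LAT1 (ENSG00000103257, chromosome 16, 87830023 to 87869488), stood at 17.8, 17.5, 15.98 and 17.5 CPM in WT vehicle and 4.35, 3.80, 4.08 and 4.89 CPM in WT GCN2iB. In p53 KO it stood at 18.1, 21.4, 20.3 and 20.9 CPM with vehicle and 7.43, 8.08, 8.24 and 8.09 CPM with GCN2iB. Neither the vehicle groups nor the GCN2iB groups of the genotypes overlapped, and p53 KO was higher under vehicle too (log2 0.23, adjusted p = 0.0365 by edgeR). SLC7A5 fell 4.00-fold in WT and 2.54-fold in p53 KO. The difference was 0.65 (0.40 to 0.91), just outside the threshold with all libraries (adjusted p = 0.0526 by edgeR) and inside it without WT GCN2iB replicate 4 (0.0369), with a range over the alternatives from 0.00355 to 0.476. In CPM the losses were alike, -12.9 in WT and -12.2 in p53 KO. SLC7A11, the cystine importer, fell 3.61-fold and 2.45-fold, with a difference of 0.56 (0.25 to 0.86, adjusted p = 0.305 by edgeR, and 0.000107 to 0.646 over the alternatives). SLC43A1, a carrier of leucine and other neutral amino acids, was reduced 1.72-fold and 1.41-fold, with 0.28. It was higher in p53 KO under vehicle (log2 0.50, adjusted p = 5.97e-06 by edgeR). Its losses in CPM were alike, -32.5 in WT and -32.2 in p53 KO. SLC3A2, the heavy chain shared by SLC7A5 and SLC7A11, passed in neither genotype and had 0.06 (-0.18 to 0.29).

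**Figure D3:**
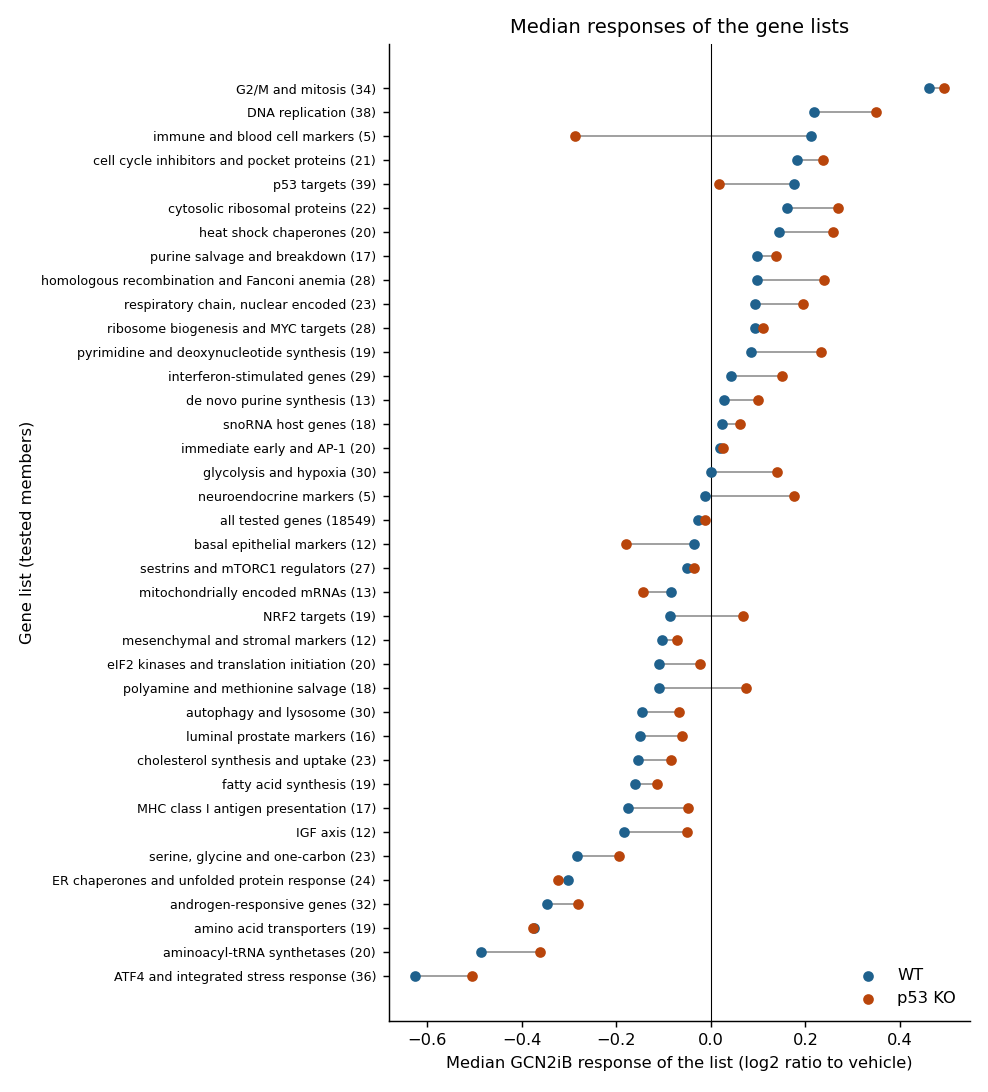
Median GCN2iB response (log2 ratio to vehicle) of the tested members of each gene list in WT (blue) and p53 KO (orange) cells, with the number tested in brackets and all 18549 tested genes for comparison. ATF4 targets lie lowest in both genotypes, G2/M genes lie highest, and p53 targets move from 0.18 in WT to 0.02 in p53 KO.

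In serine, glycine and one-carbon metabolism, which feeds carbon into purines, 13 of 23 genes fell in WT and 8 in p53 KO, and the median difference was 0.08. PHGDH, the first enzyme of serine synthesis, fell 1.47-fold and 1.31-fold, with 0.16 (-0.04 to 0.36). MTHFD2, a mitochondrial folate enzyme, fell 1.65-fold and 1.42-fold, with 0.22 (0.05 to 0.38). AHCY, which hydrolyses S-adenosylhomocysteine, fell in WT (log2 -0.41) and did not pass in p53 KO (log2 -0.16), with 0.25 (0.05 to 0.44). In none of the 3 did the difference pass.

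De novo purine synthesis, the pathway named in the title of the study, had 1 of 13 genes that rose and 1 that fell in WT. Of all tested genes 11.6% rose and 13.6% fell there. In p53 KO 5 of the 13 rose and 0 fell, against 11.4% and 8.71% of all tested genes. The difference was above 0 in 10 of 13, none passed, and the median was 0.13 (0.06 after trend removal). ATIC, the last enzyme of inosine monophosphate synthesis, stood at 226, 236, 237 and 241 CPM in WT vehicle and 195, 180.4, 179.6 and 184 CPM in WT GCN2iB. Without p53 the levels were 197, 209.7, 205 and 199 CPM with vehicle and 195, 195, 207 and 189.9 CPM with GCN2iB. The WT groups did not overlap and the p53 KO groups did. ATIC was the gene that fell in WT (1.27-fold), and its difference was 0.31 (0.15 to 0.46, adjusted p = 0.26 by edgeR). PFAS was the gene that rose in WT, 1.496-fold, and it rose 1.33-fold in p53 KO, with -0.17 (-0.35 to 0.01). PAICS (0.03 in WT, 0.23 in p53 KO) and GART (0.03 and 0.21), both multifunctional enzymes of the pathway, passed in p53 KO and not in WT, and their differences were 0.20 (0.03 to 0.37) and 0.18 (0.02 to 0.35). GMPS, which makes guanosine monophosphate, passed in neither genotype and had 0.19. The 95% interval lay within ±0.5, a 1.41-fold difference, for all 13 genes. The same held for 53.4% of all tested genes and for 85.0% of those with at least 5 CPM.

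Purine salvage and breakdown had a median difference of 0.01 over 17 genes, and -0.03 with library totals, -0.01 with DESeq2 size factors and -0.03 after trend removal. APRT, which salvages adenine, had 0.17 (-0.10 to 0.44), HPRT1, which salvages hypoxanthine and guanine, 0.17 (-0.02 to 0.35), ADK, adenosine kinase, 0.15 (-0.06 to 0.36), and DCK, deoxycytidine kinase, 0.22 (0.01 to 0.43). Pyrimidine and deoxynucleotide synthesis had 0.14 (0.07 after trend removal) over 19 genes, 17 of them above 0. RRM2, the regulated subunit of ribonucleotide reductase, rose 1.37-fold in WT and 1.53-fold in p53 KO, with 0.16 (0.01 to 0.30). SAMHD1, which degrades deoxynucleotides, and NME1, a nucleoside diphosphate kinase, rose in p53 KO (log2 0.27 and 0.50) and did not pass in WT, with differences of 0.25 and 0.37.

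Most of the listed cell division genes rose with GCN2iB in both genotypes. Of 38 DNA replication genes, 23 rose and 0 fell in WT, and 29 rose and 0 fell in p53 KO. The difference was above 0 in 33 of 38, with a median of 0.12 (0.07 after trend removal) and 0 calls. MCM7, a subunit of the replicative helicase and the most abundant of the list, rose 1.47-fold and 1.60-fold, with 0.12 (-0.07 to 0.31). PRIM1, a primase subunit, and CHAF1B, of the chromatin assembly factor CAF-1, rose in p53 KO (log2 0.61 and 0.34), had 0.23 and 0.04 in WT, and differed by 0.37 and 0.30 (adjusted p = 0.375 and 0.349 by edgeR). RPA2, of the single-strand binding complex, passed in neither genotype and had 0.25. Of 34 G2/M and mitosis genes, 28 rose in WT and 29 in p53 KO, and the median difference was 0.02, at -0.02 with library totals as the scaling and -0.06 after trend removal. TPX2, a spindle assembly factor, rose 1.58-fold and 1.76-fold (0.16, -0.03 to 0.35), and MELK and CCNF, a mitotic kinase and a cyclin of the F-box family, had 0.17 and 0.18.

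Among transcripts of the translation machinery, 6 of 22 tested cytosolic ribosomal proteins rose in WT and 15 in p53 KO, and 18 had a difference above 0 (median 0.11, and 0.00 without both GCN2iB libraries numbered 4, and 0.06 after trend removal). RPL4 stood at 2628 ± 149 and 2391 ± 147 CPM in WT and 2168 ± 115 and 2424 ± 48.9 CPM in p53 KO, a difference of 0.30 (0.13 to 0.47, adjusted p = 0.324 by edgeR). RPL3 had 0.28, whereas RPS2, the most abundant, rose in both genotypes and had -0.09 (-0.43 to 0.25). EEF1A1, the elongation factor that delivers aminoacyl-tRNA, fell in WT from 11190.5 ± 364 to 9190.2 ± 503 CPM and stood at 7481 ± 115 and 7803 ± 129.8 CPM in p53 KO, a difference of 0.34 (0.19 to 0.50, adjusted p = 0.152). These genes have many processed copies in the genome, so their read assignment is uncertain.

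Glycolysis and hypoxia genes had the median difference 0.16 over 30 genes, 24 of them above 0, with 5 that rose in WT and 9 in p53 KO. LDHA, lactate dehydrogenase, had 1397 ± 97.7 and 1365 ± 51.6 CPM in WT and rose from 1028 ± 65.3 to 1239.7 ± 73.4 CPM in p53 KO, a difference of 0.30 (0.12 to 0.49, adjusted p = 0.324 by edgeR). PKM, pyruvate kinase, and ENO1, enolase, also rose in p53 KO (log2 0.31 and 0.37) and had differences of 0.29 and 0.24. EGLN3, an oxygen-sensing hydroxylase, rose in p53 KO (log2 0.23) and had 0.34. LDHA, PKM and ENO1 were each lower in p53 KO than in WT under vehicle (log2 -0.44, -0.36 and -0.40) and did not pass between the genotypes under GCN2iB (-0.14, -0.07 and -0.16).

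Of the androgen-responsive genes, most fell in both genotypes, 27 of 32 in WT and 21 of 32 in p53 KO, with a median difference of 0.07 (0.02 after trend removal). ACP3, prostatic acid phosphatase, fell in WT from 42.8 ± 2.95 to 31.3 ± 1.21 CPM and had 26.1 ± 0.929 and 23.6 ± 0.959 CPM in p53 KO, a difference of 0.31 (0.12 to 0.49). HPGD, which inactivates prostaglandins, and TPD52 fell in WT (log2 -0.63 and -0.39), did not pass in p53 KO (-0.17 and -0.07), and had differences of 0.46 and 0.32. KLK3, which encodes prostate-specific antigen, fell in both genotypes and had 0.03 (-0.15 to 0.21).

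ER chaperones and genes of the unfolded protein response had more differences below 0 than above, 16 of 24, as had the p53 targets. So had the mitochondrially encoded mRNAs (10 of 13), the IGF axis (7 of 12) and the immune and blood markers (3 of 5). The median of the ER list was -0.09, with -0.04 without both GCN2iB libraries numbered 4 and -0.14 after trend removal. In each genotype 16 fell and 0 rose. DNAJB11 had -0.21 (-0.37 to -0.04) and DERL3 -0.53 (-0.995 to -0.06), PDIA3, a disulfide isomerase, fell 1.56-fold in WT and 1.31-fold in p53 KO (0.25, 0.08 to 0.43), and CALR, calreticulin, had 0.01 (-0.16 to 0.18).

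Of the genes of fatty acid synthesis, FASN, fatty acid synthase (ENSG00000169710, chromosome 17, 82078333 to 82098332), stood at 1998, 2239, 2129 and 2313 CPM in WT vehicle and 2928, 3281, 3102 and 2938 CPM in WT GCN2iB. The p53 KO libraries had 1884, 2219.8, 2265 and 2299 CPM with vehicle and 2409.6, 2318, 2246 and 2349 CPM with GCN2iB. Only WT GCN2iB stood clear of the other groups. FASN rose 1.41-fold in WT, had a ratio of 1.08 in p53 KO (adjusted p = 0.279 by edgeR) and differed by -0.39 (-0.58 to -0.20, adjusted p = 0.238), or -0.22 after trend removal. The list as a whole had a median of 0.04 over 19 genes, of -0.0026 with library totals and -0.02 after trend removal. ELOVL6, an elongase, fell 1.34-fold and 1.19-fold, and TECR, a reductase of the elongation cycle, had 0.24. In cholesterol synthesis the median was 0.05 over 23 genes, 0.01 with library totals, 0.0027 without WT GCN2iB replicate 4 and -0.02 after trend removal. CYP51A1, lanosterol demethylase, rose 1.86-fold in WT and 1.29-fold in p53 KO, with -0.53 (-0.87 to -0.19, adjusted p = 0.334). IDI1 and EBP had 0.19 and 0.30.

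Ranked by unadjusted p, 40 protein-coding and long noncoding genes with at least 5 CPM had a p under 0.001, a list that includes SESN2 and was chosen after its values were seen. By fitted sign 20 of them moved in opposite directions in the genotypes, 9 fell less and 5 rose less in p53 KO, and 3 fell further and 3 rose further. CBLN2, a secreted synaptic organiser, stood at 9.52, 10.8, 10.8 and 8.98 CPM in WT vehicle and 15.1, 13.7, 14.2 and 16.6 CPM in WT GCN2iB. In p53 KO it stood at 12.1, 12.3, 13.01 and 12.6 CPM with vehicle and 28.7, 28.3, 27.5 and 28.3 CPM with GCN2iB, clear of all other libraries. It rose 1.49-fold and 2.25-fold, with a difference of 0.60 (0.37 to 0.82, adjusted p = 0.0526 by edgeR, 0.0369 without WT GCN2iB replicate 4, and 0.00136 to 0.291 over the alternatives). NEAT1, the long noncoding RNA of paraspeckles, stood at 522, 449, 344 and 390.1 CPM in WT vehicle and 526, 725, 822 and 768 CPM in WT GCN2iB. Without p53 NEAT1 had 613, 529.8, 608 and 531 CPM with vehicle and 460.2, 492, 487 and 570.0 CPM with GCN2iB. Its replicates were widely spread, it rose 1.67-fold in WT and did not pass in p53 KO (log2 -0.18), and its difference of -0.92 (-1.31 to -0.54) had an adjusted p of 0.152 by edgeR.

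BEST1, a chloride channel, fell 3.72-fold in WT, to 1.55 to 2.84 CPM, and 2.16-fold in p53 KO, to 5.39 to 5.77 CPM, with a difference of 0.79 (0.40 to 1.17). It was higher in p53 KO under vehicle too (log2 0.48, adjusted p = 0.00477 by edgeR). Its losses in CPM were alike, -6.24 in WT and -6.41 in p53 KO. ACAT1, a mitochondrial thiolase, fell 1.58-fold and 1.16-fold, with 0.44 (0.24 to 0.65). The cytolinkers PLEC and EPPK1 rose in WT (1.33-fold and 1.24-fold), did not pass in p53 KO, and had -0.51 (-0.72 to -0.30) and -0.51 (-0.74 to -0.28). After trend removal these were -0.25 and -0.22. NOTCH1, a receptor of cell fate signalling, and BCL9L, a coactivator of Wnt signalling, likewise rose in WT (log2 0.24 and 0.37), with -0.46 and -0.46. GABBR1, a subunit of the GABA-B receptor, had -0.07 in WT, where it did not pass, and fell 1.66-fold in p53 KO, with -0.66 (-0.98 to -0.34). RAD54B, a recombination helicase, rose 1.82-fold and 1.26-fold, with -0.53. SMN2 had 0.57, and its reads cannot be parted with certainty from those of its near-identical copy SMN1. NUP93, a nucleoporin, and BTF3, of the nascent polypeptide-associated complex, rose in p53 KO (log2 0.39 and 0.35), did not pass in WT, and had 0.28 and 0.30. LCP1, an actin bundler, fell in WT (log2 -0.41) and had 0.34.

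**Figure D4:**
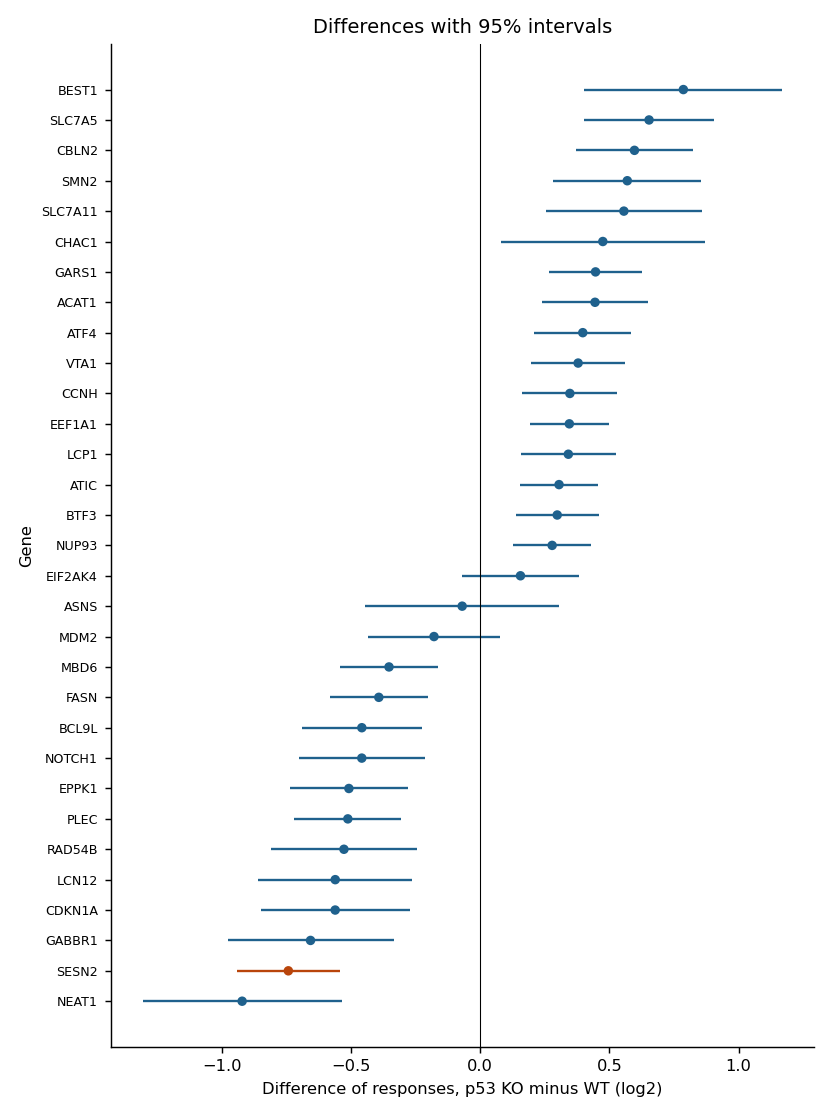
Difference of responses (p53 KO minus WT, log2) with its 95% interval for the genes named in the text that are ranked by unadjusted p, and for CDKN1A, MDM2, EIF2AK4, ATF4, ASNS and CHAC1. SESN2 (orange) is the 1 called gene, at -0.74 with an interval of -0.94 to -0.54, and the intervals of MDM2, ASNS and EIF2AK4 include 0.

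Across genes the responses of the genotypes ran together. GCN2iB called 4677 genes in WT and 3734 in p53 KO, of which 2401 were shared (51.3% of the WT calls and 64.3% of the p53 KO calls). Of the shared genes 2396 had the same direction and 5 the opposite one. The responses rest on separate libraries in each genotype. They correlated at r = 0.79 over 11320 genes with at least 5 CPM and at r = 0.51 over all tested genes. Both values describe genes that are not independent. Of 17 genes with at least 5 CPM that rose 2-fold or more in WT, the median response was 1.14 in WT and 0.60 in p53 KO, and of 17 that fell 2-fold or more it was -1.59 and -1.20. The 15 genes that fell 2-fold or more in p53 KO had a median of -1.21 there and -1.72 in WT, and only 4 of them had the smaller fall in WT. The 3 genes that rose 2-fold or more in p53 KO had 1.14 there and 0.89 in WT. Each of these sets was chosen by the response of 1 genotype. The median 95% half-interval over the 11320 genes was 0.24, or 1.18-fold.

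**Figure D5:**
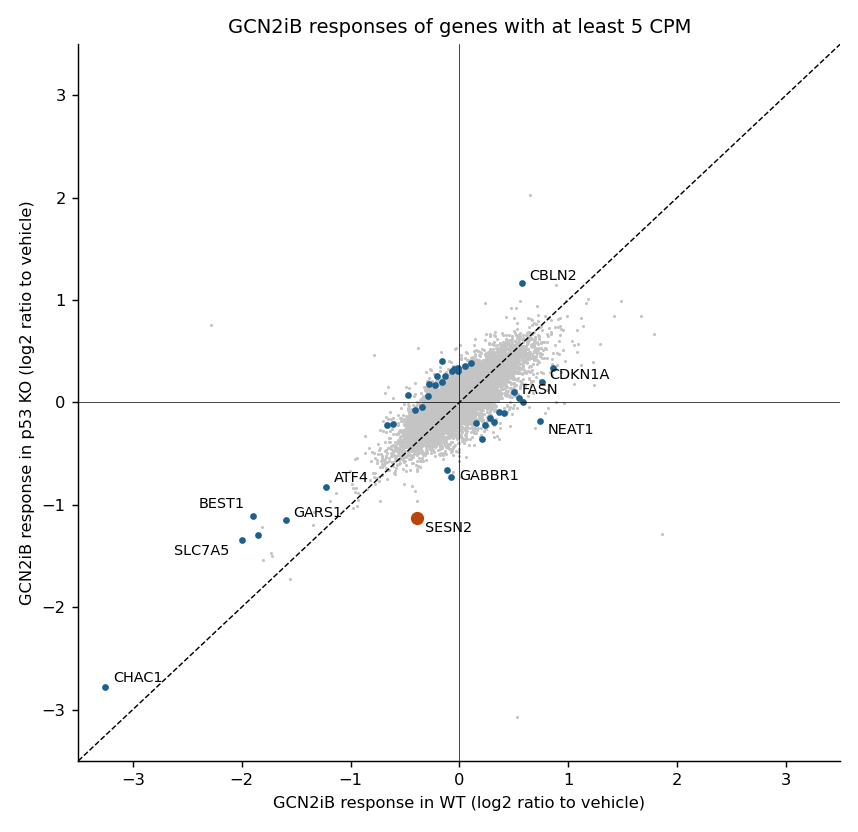
GCN2iB response in p53 KO against that in WT (log2 ratio to vehicle) for 11320 genes with at least 5 CPM (grey), with the genes ranked by unadjusted p (blue) and SESN2 (orange). The dashed line marks equal responses. Genes lie along it, with SESN2 below it at -0.39 and -1.13, and SLC7A5, BEST1, GARS1 and ATF4 above it.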

How the data were processed

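RNA from 16 LNCaP samples was sequenced in paired ends. The authors deposited raw read counts per gene, with no normalization. Per the submitters' processing notes, reads were handled with Trim Galore, HISAT2 and featureCounts on GRCh38, and DESeq2 is listed as well. Tool versions, the annotation and strandedness were not given in the sources used here. Reads of overlapping antisense genes therefore cannot be parted. Each column was matched to a sample by its title, and 0 columns lacked a sample.

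Genes were kept by filterByExpr (18549 of 62754), scaled by TMM and fitted over all 16 libraries with the quasi-likelihood model of edgeR 4.0.16 (robust, 1 term per group, R 4.3.3). The difference of responses and the response in each genotype were contrasts of this fit, tested two-sided, with Benjamini-Hochberg adjustment over all tested genes and a threshold of 0.05. The SE is the size of the log2 value over the square root of F, and 95% intervals use the degrees of freedom of the fit. Symbols were matched for 42343 genes and GENCODE 29 positions for 58261. The fit was also run on simulated counts in which only p53 KO GCN2iB held changes. That run had no other group effects, deviating library or shared replicate number, so it does not bear on those.

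The members, the 37 gene lists (825 genes) and the rules were chosen with earlier results of these data known, so lists are described by counts and medians without a test. Named genes are a fixed set (CDKN1A, MDM2, EIF2AK4, ATF4, ASNS and CHAC1), genes that passed and reached 5 CPM in their highest group (up to 12 each way), called list members (up to 4 per list), and the most abundant members of described lists. Genes ranked by unadjusted p, members with the smallest p of a list, the further purine genes and the other sestrins were added after their values were seen. Alternatives were DESeq2 1.42.0 size factors and test, limma 3.58.1 voom, library totals, 2 other count filters, thinning to the smallest library, each library left out, both GCN2iB libraries numbered 4 left out, replicate number as a block, and, chosen after the data were seen, removal of GC and length trends. Results for some genes, the targeted gene included, are not reported here. Figures were drawn in Python 3.11.15.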

Additional observations from a re-analysis of the deposited data

Results flagged for a closer look

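SESN2 differed between the genotypes in its GCN2iB response, by -0.7424 on the log2 scale (adjusted p = 0.00142 by edgeR, lower in p53 KO GCN2iB in 4 of 4 libraries).

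In 24 of 404 groups of 4 libraries (101 genes examined in 4 groups), 1 library lay far from the other 3, with a gap to the nearest, relative to the range, above the 95% critical value of Dixon's test. Chance flags about 1 in 20 groups. In WT vehicle these were replicate 1 for SESN2 (45.8 CPM, others 51.4 to 52.2), RAD54B (5.21 CPM) and MCM7 (388 CPM), replicate 3 for SLC7A5 (15.98 CPM, others 17.5 to 17.8) and replicate 4 for CCNH (80.3 CPM). In WT GCN2iB they were replicate 4 for CDKN1A (375 CPM, others 483 to 501) and CALR (2851 CPM), replicate 1 for ACAT1 (71.7 CPM, others 55.4 to 55.8) and MELK (91.3 CPM), and replicate 3 for DERL3 (3.41 CPM). In p53 KO vehicle replicate 4 was high for CDKN1A (43.1 CPM), and replicate 1 stood apart for NOTCH1 (29.9 CPM), BCL9L (77.8 CPM), VTA1 (239 CPM), APRT (218 CPM), CCNF (37.2 CPM), RPL4 (1997 CPM) and DERL3 (3.73 CPM). In p53 KO GCN2iB replicate 4 stood apart for CHAC1 (4.28 CPM, others 2.99 to 3.17), RPL4 (2497 CPM), DERL3 (6.35 CPM) and GART (145 CPM), and replicate 1 for LCN12 (5.69 CPM) and MBD6 (41.1 CPM).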

How the results depend on the processing

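SESN2 was called under all 25 alternatives without a block, with differences from -0.8063 to -0.7141. The count of called genes was less stable. In the fit of all libraries 0 were higher and 1 lower. Scaling by the size factors of DESeq2 gave 0 higher and 2 lower, and library totals gave 0 and 4. Dropping the count filter gave 13 and 34, and a minimum mean of 50 counts gave 0 and 6. The DESeq2 test gave 19 and 19, the omission of both GCN2iB libraries numbered 4 gave 2 and 4, and removal of GC and length trends gave 4 and 8. Leaving out 1 library gave 0 to 19 higher and 1 to 15 lower, both extremes without WT GCN2iB replicate 1. Limma voom and thinning gave 0 and 1. The cause of these shifts was not tested.

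The numbers in the labels were not treated as pairs, since the labels state no batch or pairing. In their residuals 12 of 24 same-number pairs had r above 0.1, and their r ran from -0.06 to 0.62. The median r was 0.095 for same-number pairs and -0.038 for the other pairs. Of 16 libraries 11 correlated best with their own number. With replicate number as a block 35 genes were higher and 26 lower, SESN2 among the latter (-0.7388), and 31 of the other 100 genes examined passed, ATF4, SLC7A5, GARS1, CBLN2, ATIC, FASN and DDIT4 among them. No gene examined changed sign under the block.

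Values near 0 changed sign. ASNS went to 0.081 without both GCN2iB libraries numbered 4 and ranged from -0.19 to 0.0484 with 1 library left out. CALR was -0.00717 with DESeq2 size factors, -0.0295 with library totals, -0.00768 with no filter, -0.0403 with the 50-count filter, -0.00714 with the DESeq2 test, -0.0248 with thinning and -0.0425 after trend removal, and -0.0444 to 0.0252 with 1 library left out. KLK3 was -0.0112 with library totals, -0.0212 with the 50-count filter, -0.0136 without both GCN2iB libraries numbered 4, -0.0131 with thinning and -0.0232 after trend removal, and -0.0309 to 0.0519. SESN3 was -0.00282 with library totals, -0.0178 with the 50-count filter and -0.0102 after trend removal, and -0.0681 to 0.129. SESN1 was -0.0173 after trend removal, and -0.0122 to 0.128. SLC3A2 ranged from -0.0371 to 0.0897 with 1 library left out. Low counts limit weak genes most: the median 95% half-interval was 0.32 over all tested genes and 0.24 over those with at least 5 CPM. The median difference over genes of low to high GC content ran from 0.07 to -0.02.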
